A study of Mus musculus with 18 samples.

Results

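The core circadian clock was examined through 10 genes, Per1, Per2, Per3, Dbp, Nr1d1, Nr1d2, Ciart, Arntl, Clock and Cry1, taken by symbol from the 53468 genes of the deposited count table through the GENCODE M21 annotation. All 10 were found, and all 10 passed the filter on low counts in every comparison. They were chosen with results of these libraries known, for their level in each brain region and for whether the libraries of a mouse shift together, so their own values are given as a description, with standard errors and no p-value. Counts of members past a threshold are also given, and nothing is read from them.

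The libraries were poly(A) mRNA-seq of forebrain, midbrain and hindbrain from mice at postnatal day 25, on a C57BL/6 background. Of the 6 mice, all from the same litter, 3 carried Fmr1CRE, a single-base change placed by CRISPR/Cas9 in a regulatory element of Fmr1 (genotype Fmr1 Mut in the labels), and 3 were wild type (WT). Several lines were made from the knock-in, and which of them gave these mice is not given in the sources used here. Each mouse gave 1 library of each region, which made 18 libraries in 6 groups of 3. The 3 replicates of a genotype are its 3 mice, and replicate 1 of Fmr1CRE in forebrain is the same animal as replicate 1 of Fmr1CRE in midbrain and hindbrain. The hour at which each mouse was dissected is not given in the sources used here. Every region was taken as a whole piece of tissue, so fewer cells of a type and less RNA per cell cannot be told apart.

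The clock of mammalian cells is a delayed feedback loop that runs once a day in nearly every tissue, the brain included. CLOCK and BMAL1, the product of Arntl, pair and bind E-box sequences to switch on the Per and Cry genes, whose proteins then return to the nucleus and hold the pair back. In a second loop the pair drives Nr1d1 and Nr1d2, which encode the nuclear receptors REV-ERB alpha and beta that repress Arntl, while Dbp, an activator that binds D-box sequences, and Ciart, which encodes the repressor CHRONO, are also direct targets. Genes driven by the pair therefore peak at another time of day than Arntl. The suprachiasmatic nucleus of the hypothalamus sets the phase of the other tissues, and Per1 and Per2 also respond within minutes to neuronal activity, as immediate early genes do.

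Depth was even, with 22455512 to 28061185 counts a library. Of the forebrain markers, Tbr1 was at 53.3 to 80.8 CPM (counts relative to the TMM-scaled library total) in forebrain, 24.1 to 57.2 in midbrain and 0.161 to 0.820 in hindbrain. Neurod6 was at 39.98 to 75.4 in forebrain, 44.99 to 55.0 in midbrain and 5.28 to 7.85 in hindbrain, so that midbrain libraries held forebrain markers too. The 7 hypothalamic markers Hcrt, Pmch, Agrp, Pomc, Oxt, Sim1 and Six6 summed to between 3.43 CPM in forebrain of Fmr1CRE replicate 1 and 73.0 in forebrain of WT replicate 2, and to between 2.51 in midbrain of WT replicate 3 and 97.4 in midbrain of Fmr1CRE replicate 1. In midbrain they summed to 97.4, 59.5 and 33.7 in Fmr1CRE replicates 1 to 3 and to 13.9, 2.81 and 2.51 in WT. Every Fmr1CRE mouse thus lay above every WT mouse there. Fmr1CRE replicates 1 and 2 were the lowest in forebrain, and WT replicates 1 and 2 the highest. WT replicate 3 was at 32.4 in forebrain, below Fmr1CRE replicate 3 at 45.2, and the lowest in midbrain. The part of this in the results for either region was not tested. Forebrain libraries of both mice of replicate 3 also stood apart. Fos, the best known immediate early gene, was at 3.85 CPM in forebrain of Fmr1CRE replicate 3 against 34.0 and 20.8 in its midbrain and hindbrain, and at 24.8 in forebrain of WT replicate 3 against 5.02 and 4.65. Each of these forebrain values thus lay nearer the midbrain and hindbrain of the other mouse. Whether the forebrain labels of these mice had been exchanged was not tested, and labels were kept as given. WT replicate 2 was low in all 3 regions, at 3.88, 6.33 and 3.41, and in the remaining 3 mice every region was at 17.4 or more, so results that rest on these libraries are given with and without them.

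A property of the deposited counts touched 2 of the 10 genes strongly, Per2 and Cry1, and Ciart to a lesser degree. The counts had been rebuilt by the authors' pipeline from transcript abundances, so that a read on a very short transcript weighs far more than a read on a long one. Reads added up over the transcripts of each gene, called summed reads from here on, give a second value that was added after the data were seen. Per2-202, a 231-base transcript of Per2, held 1.43% of the gene's reads and 86.2% of its abundance, and it held 0 to 14.5 reads a library. Cry1-203, of 177 bases, held 1.44% of the reads of Cry1 and 81.8% of its abundance. The ratio of deposited to summed value ran from 0.238 to 3.46 for Per2 and from 0.245 to 2.87 for Cry1 over the 18 libraries. For the other 8 genes it ran from 0.782 to 1.48 for Ciart, from 0.854 to 1.24 for Per1, and from 0.895 to 1.11 over the remaining 6. Deposited values are given first, and for Per2 and Cry1 the summed values carry the description. Some members also overlap another gene when whole gene spans, introns included, are compared. Whether their transcripts share sequence was not examined and a stranded count is not stated, so any reads they share are uncertain. Nr1d1 lies across Thra (31960 counts over the 18 libraries against 259012), Dbp across Sphk2 (37002 against 10395), Per3 within reach of Camta1 on the same strand (16539 against 115116), and Clock holds the pseudogene Ube2n-ps1 (46232 against 11881).

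**Figure D1:**
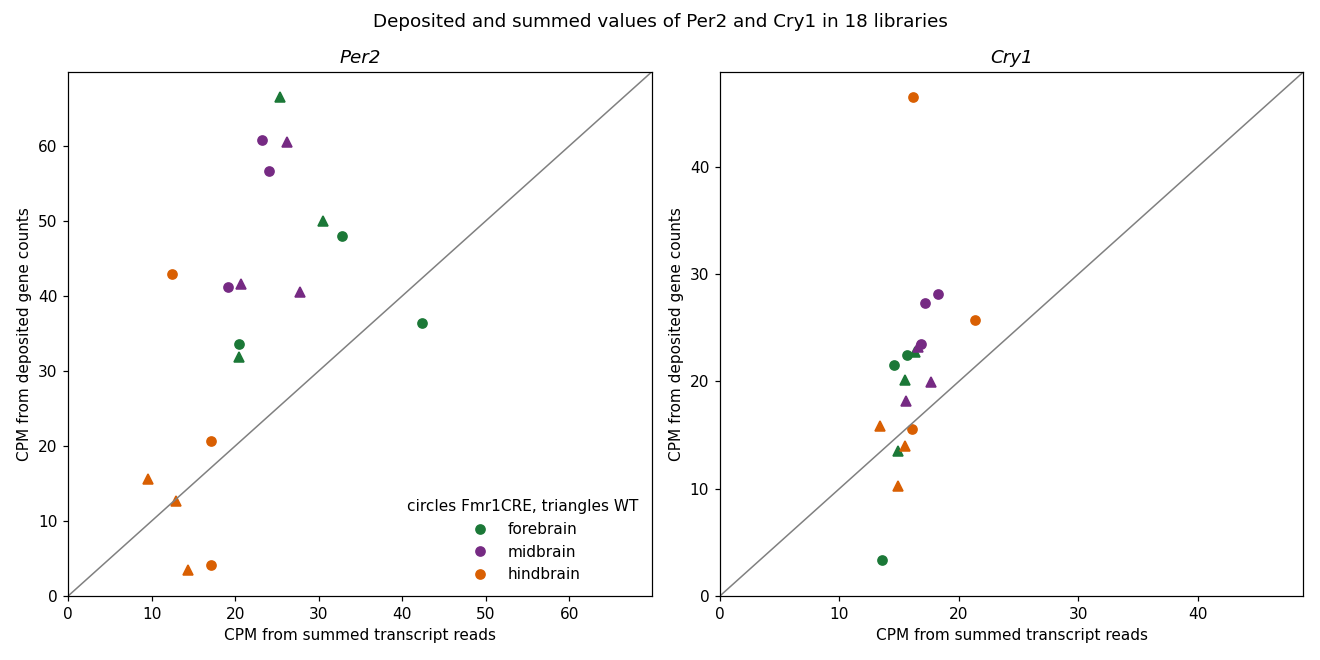
CPM of Per2 (left) and Cry1 (right) in the 18 libraries, from the deposited gene counts (y axis) and from summed transcript reads (x axis). Colours mark the regions, circles Fmr1CRE and triangles WT, and the grey line marks equal values. Deposited Cry1 ran from 3.31 to 46.5 CPM where summed Cry1 ran from 13.4 to 21.4.

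Promoter windows of some of these genes hold the letters of sites that the loop uses. Binding at these sites was not measured here. RefSeq windows of 300 bases on GRCm38.p6, from 250 bases before the start of transcription to 50 after it, were given for 9 of the 10 genes, with Per2 named only. Windows were searched on both strands for the E-box CACGTG and its variant CACGTT, the D-box TTANGTAA, and TAGGTCA and TGGGTCA, both forms of the site that REV-ERB and ROR proteins share. Over all 32817 windows, CACGTG stood in 7.15%, CACGTT in 4.69%, TTANGTAA in 2.32%, TAGGTCA in 2.61% and TGGGTCA in 3.98%. Stretches are shown for the gene with the most E-boxes, for Per1, for the D-boxes of Per3 and for the receptor site of Arntl, with the match in capitals and each read 5′ to 3′ on the strand of the gene.
Ciart, chr3:95882252-95882359, minus strand, 3 E-boxes: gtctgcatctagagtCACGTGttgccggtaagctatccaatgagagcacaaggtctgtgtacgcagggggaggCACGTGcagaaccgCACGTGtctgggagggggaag
Per1, chr11:69098768-69098803, plus strand, 1 E-box: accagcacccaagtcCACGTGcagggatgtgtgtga
Per3, chr4:151044801-151044885, minus strand, 2 D-boxes: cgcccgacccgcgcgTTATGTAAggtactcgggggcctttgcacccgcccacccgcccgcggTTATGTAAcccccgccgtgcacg
Arntl, chr7:113207530-113207559, plus strand, 1 receptor site: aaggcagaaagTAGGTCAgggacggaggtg
The 3 E-boxes of Ciart began 116, 58 and 44 bases before its start, whereas the site of Arntl began 31 bases after the start of the second of its 2 windows. The Cry1 window held 1 CACGTG and 1 CACGTT, and the Nr1d1 window held 1 CACGTT. No GENCODE transcript of Nr1d1 held the bases just after the start of its window. Windows of Dbp, Nr1d2 and Clock, and the other window of Per1 and of Arntl, held none of these letters, which says nothing of sites elsewhere in those genes.

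Dbp (chromosome 7, 45705088 to 45710203, plus strand), whose protein activates D-box genes, was the gene whose libraries moved most nearly together within a mouse. In forebrain it was at 78.8, 99.5 and 101 CPM in Fmr1CRE replicates 1 to 3 and at 82.4, 116 and 98.5 in WT replicates 1 to 3. In midbrain the same mice gave 58.0, 83.8 and 74.6 and then 69.6, 102 and 82.9. In hindbrain they gave 53.7, 69.0 and 64.7 and then 54.5, 94.4 and 64.2. WT replicate 2 was thus the highest and Fmr1CRE replicate 1 the lowest of the 6 mice in all 3 regions, and the genotypes overlapped in each. The highest library was 1.47, 1.75 and 1.76 times the lowest in forebrain, midbrain and hindbrain.

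Ciart (chromosome 3, 95878503 to 95882251, minus strand), the repressor gene with the 3 E-boxes shown above, was again highest in WT replicate 2 everywhere. Its forebrain values were 11.05, 14.4 and 10.3 CPM in Fmr1CRE and 9.998, 17.4 and 10.9 in WT. Its midbrain values were 7.89, 11.5 and 10.6 and then 12.9, 16.0 and 11.1. Hindbrain values were 8.35, 11.4 and 10.5 and then 8.46, 16.3 and 13.9. Fmr1CRE replicate 1 was the lowest in midbrain and hindbrain, and WT replicate 1 in forebrain. Summed reads kept these highest and lowest mice, but put WT replicate 3 at 9.29 CPM in hindbrain and WT replicate 1 at 10.4 in midbrain.

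Arntl (chromosome 7, 113207465 to 113314126, plus strand), which encodes BMAL1 and is held down by the REV-ERB receptors, ran the other way in the same mice. Forebrain libraries were at 26.3, 21.3 and 18.6 CPM in Fmr1CRE and at 22.9, 16.6 and 22.2 in WT. Midbrain libraries were at 23.6, 23.2 and 19.7 and then at 21.3, 16.7 and 20.2. Hindbrain libraries were at 23.7, 16.6 and 17.3 and then at 17.0, 12.7 and 15.4. Fmr1CRE replicate 1 was the highest and WT replicate 2 the lowest in all 3 regions, the reverse of Dbp.

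**Figure D2:**
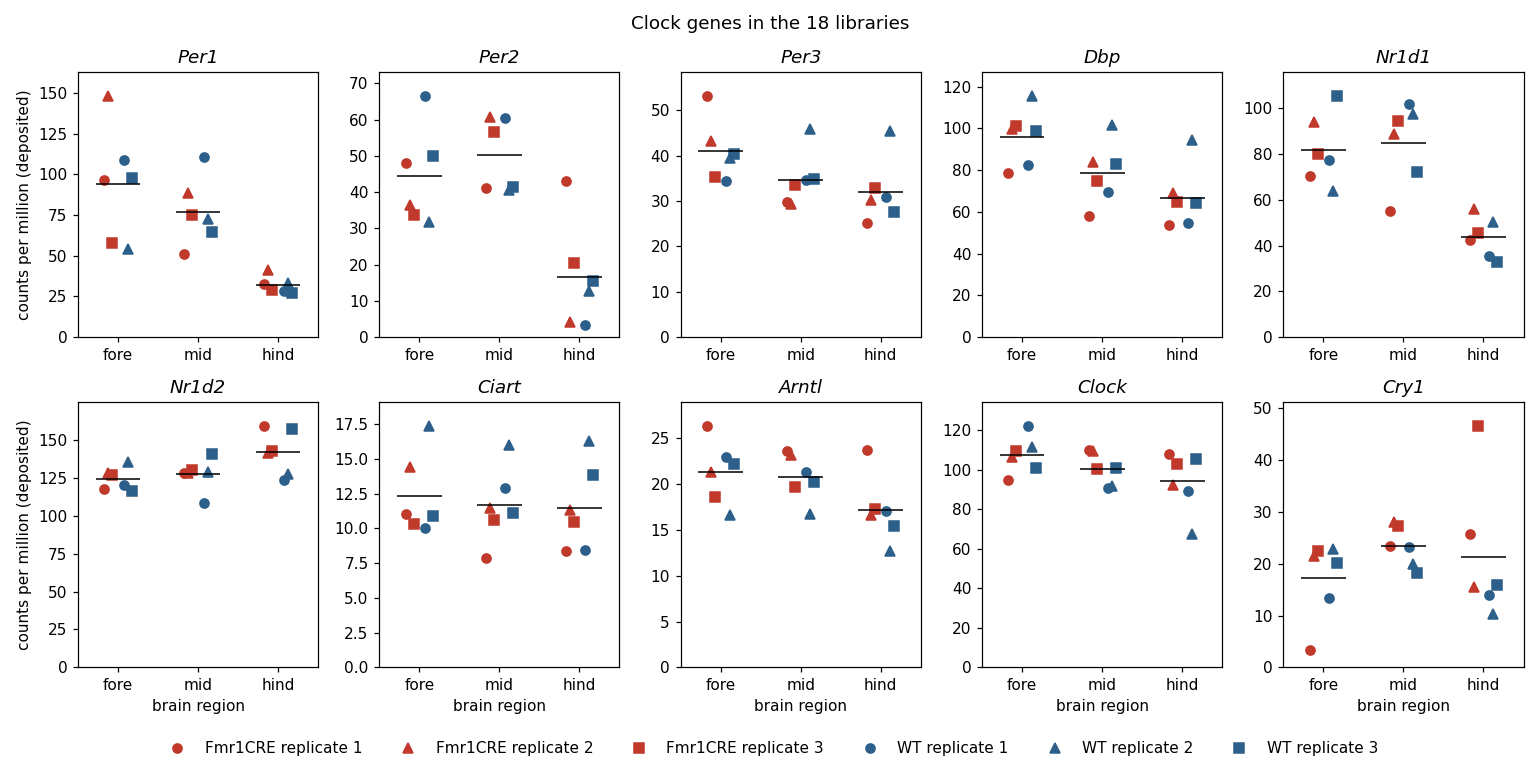
Deposited CPM (y axis, from 0) of the 10 genes in forebrain, midbrain and hindbrain (x axis). Each point is a library, red for Fmr1CRE and blue for WT, circles, triangles and squares mark replicates 1, 2 and 3, and the bar is the mean of the 6 libraries. The blue triangle, WT replicate 2, is at the top of the Dbp and Ciart panels and at the foot of the Arntl panel in all 3 regions.

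On a log2 scale, with each library set against the mean of its region and the 3 regions of a mouse averaged, Dbp deviated by 0.40 in WT replicate 2 and by -0.32 in Fmr1CRE replicate 1, with the other 4 mice between -0.21 and 0.08. Ciart deviated by 0.52 and -0.36 in the same pair, and Arntl by -0.35 and 0.33. The spread within regions was then split into a share between mice and a share among the libraries of a mouse. The share between mice was 93.1% for Dbp, 86.2% for Arntl and 75.8% for Ciart, against a median of 31.6% over the 20363 genes tested. Of those genes, 99.95% had a smaller share than Dbp, 99.8% a smaller share than Arntl and 99.0% a smaller share than Ciart. Shared shift was part of the choice of genes, so nothing is read from these ranks. In summed reads the shares were 93.7%, 92.3% and 78.8%.

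The shares of Dbp and Arntl did not hang on a single mouse, and that of Ciart did. Leaving out each mouse in turn gave 91.1% to 94.3% for Dbp and 72.4% to 88.9% for Arntl. For Ciart the share fell to 47.6% without WT replicate 2, with 73.0% to 85.4% when any other mouse was left out. Without both mice of replicate 3, whose forebrain libraries stood apart, it was 95.3% for Dbp, 90.6% for Arntl and 83.2% for Ciart.

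**Figure D3:**
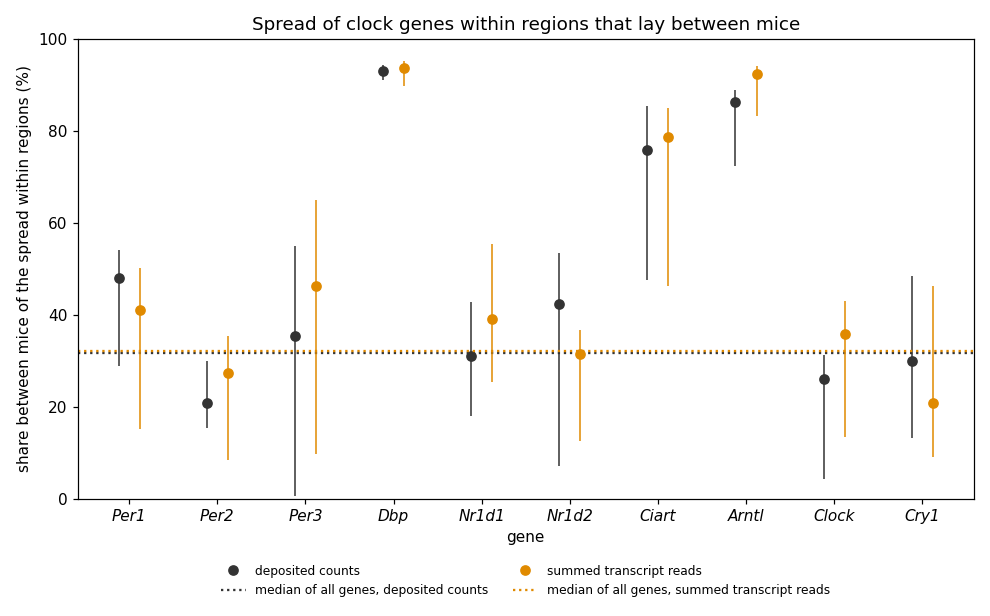
Share between mice of the spread of log2 CPM within regions, in percent (y axis), for each gene (x axis), from deposited counts (black) and summed transcript reads (orange). Vertical lines run from the lowest to the highest share when each of the 6 mice was left out in turn, and dotted lines mark the median over all genes, 31.6% and 32.2%. Dbp, Arntl and Ciart lie at 75.8% or more, and the other 7 genes at 48.0% or less.

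The other 7 genes had shares of 20.8% (Per2) to 48.0% (Per1), a range that holds the median of all genes. In midbrain and hindbrain alone, where the median of all genes was 51.5%, several of these 7 were also high, with Per3 at 92.1%, Nr1d2 at 85.2%, Clock at 74.8% and Cry1 at 65.5%, so that Per3 lay above Arntl (86.9%) and Nr1d2 above Ciart (81.8%), with Dbp highest at 95.9%. A single mouse was highest in all 3 regions for 3 of the 10 genes, Dbp, Ciart and Arntl, and a single mouse was lowest for 2, Dbp and Arntl. Over all genes tested these events had frequencies of 2.93% and 3.1%, and since the genes were chosen for shared shifts nothing is read from the contrast. In summed reads the same 3 genes had a single highest mouse and Arntl alone a single lowest, against 2.96% and 3.5%. In the edgeR quasi-likelihood test of mouse within genotype, 0.0393% of 20363 genes passed an adjusted p of 0.05, with none of the 10 among them. Without adjustment 3 of the 10 lay under 0.05, Arntl, Ciart and Dbp, as did 1024 of all 20363 genes, and DESeq2 called Arntl and Dbp, against 0.604% of all genes. In midbrain and hindbrain alone 0.0151% passed and none of the 10, with 3 (Dbp, Nr1d1 and Per3) and 1178 of all 19849 genes under an unadjusted 0.05. On summed reads 0.0644% of genes passed, Dbp among them. Without both forebrain libraries of replicate 3, 0.101% passed and none of the 10, with 6 and 2114 of all 20876 genes under an unadjusted 0.05. On summed reads without these libraries 0.421% passed, Ciart and Dbp among them. The 10 were chosen for shared shifts, so nothing is read from their calls in this test.

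None of the Period genes had a single highest mouse in all 3 regions, as Dbp had. Per3 (chromosome 4, 151003652 to 151044665, minus strand), the family member with the D-boxes shown above, was highest in WT replicate 2 in midbrain and hindbrain, but not in forebrain. It was at 45.9 CPM there in midbrain, where the other 5 mice were at 29.4 to 34.8, and at 45.4 in hindbrain, where they were at 25.04 to 32.8. In forebrain WT replicate 2 was at 39.5, inside the range of the others, 34.4 to 53.1. Its share between mice was 35.3%, 0.595% without WT replicate 2, and 92.1% in midbrain and hindbrain alone.

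Per1 (chromosome 11, 69095217 to 69109960, plus strand), a repressor of the pair that also answers to neuronal activity, differed most within forebrain. Fmr1CRE replicates 1 to 3 were at 96.4, 148 and 57.7 CPM there and WT replicates at 109, 54.3 and 98.0. In midbrain the values were 51.3, 88.3 and 75.1 and then 111, 72.4 and 64.6. In hindbrain they lay closer together, at 32.8, 41.2 and 28.8 and then 28.6, 33.0 and 26.8. The forebrain libraries lowest in Per1 were those of WT replicate 2 and Fmr1CRE replicate 3.

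These libraries were also low in immediate early genes. The 18 listed genes, Fos, Npas4, Egr1 and Arc among them, summed to 347 and 356 CPM in forebrain of WT replicate 2 and Fmr1CRE replicate 3, and to 956 to 1149 in the other 4 forebrain libraries. Their part in the levels of Per1 was not tested.

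Per2 (chromosome 1, 91415982 to 91459324, minus strand), partner of Per1 in the repressor complex, gave summed values that placed the same libraries low. Forebrain was at 32.8, 42.4 and 20.4 CPM in Fmr1CRE and at 25.3, 20.5 and 30.5 in WT. Midbrain was at 19.2, 23.2 and 24.1 and then at 26.3, 27.8 and 20.6. Hindbrain was at 12.4, 17.1 and 17.1 and then at 14.4, 12.9 and 9.52. Deposited values lay at 31.9 to 66.6 in forebrain, 40.6 to 60.8 in midbrain and 3.45 to 43.0 in hindbrain, where the highest was 12.5 times the lowest against 1.79 times in summed reads.

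Nr1d1 (chromosome 11, 98767932 to 98775333, minus strand), the REV-ERB alpha gene, lay between 63.9 and 105 CPM in forebrain, 55.1 and 102 in midbrain, and 32.8 and 56.0 in hindbrain. Fmr1CRE replicate 1, the mouse highest in Arntl, was the lowest of the midbrain libraries, and WT replicate 2, the mouse lowest in Arntl, was the lowest in forebrain. In summed reads Fmr1CRE replicate 1 was the lowest in forebrain too, at 65.3 CPM, with WT replicate 2 at 67.6. Nr1d2 (chromosome 14, 18204054 to 18239127, minus strand), the REV-ERB beta gene, varied little, from 116 to 135, from 109 to 140 and from 123 to 159 in the same order of regions. Clock (chromosome 5, 76209868 to 76304792, minus strand), the partner of BMAL1, ran from 94.7 to 122, from 90.8 to 109.9 and from 67.7 to 108, with WT replicate 2 lowest in hindbrain. Cry1 (chromosome 10, 85131700 to 85185064, minus strand), the strong repressor of the pair, varied little in summed reads of forebrain, at 13.5 to 16.3, and midbrain, at 15.6 to 18.2, and more in hindbrain, at 13.4 to 21.4.

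**Figure D4:**
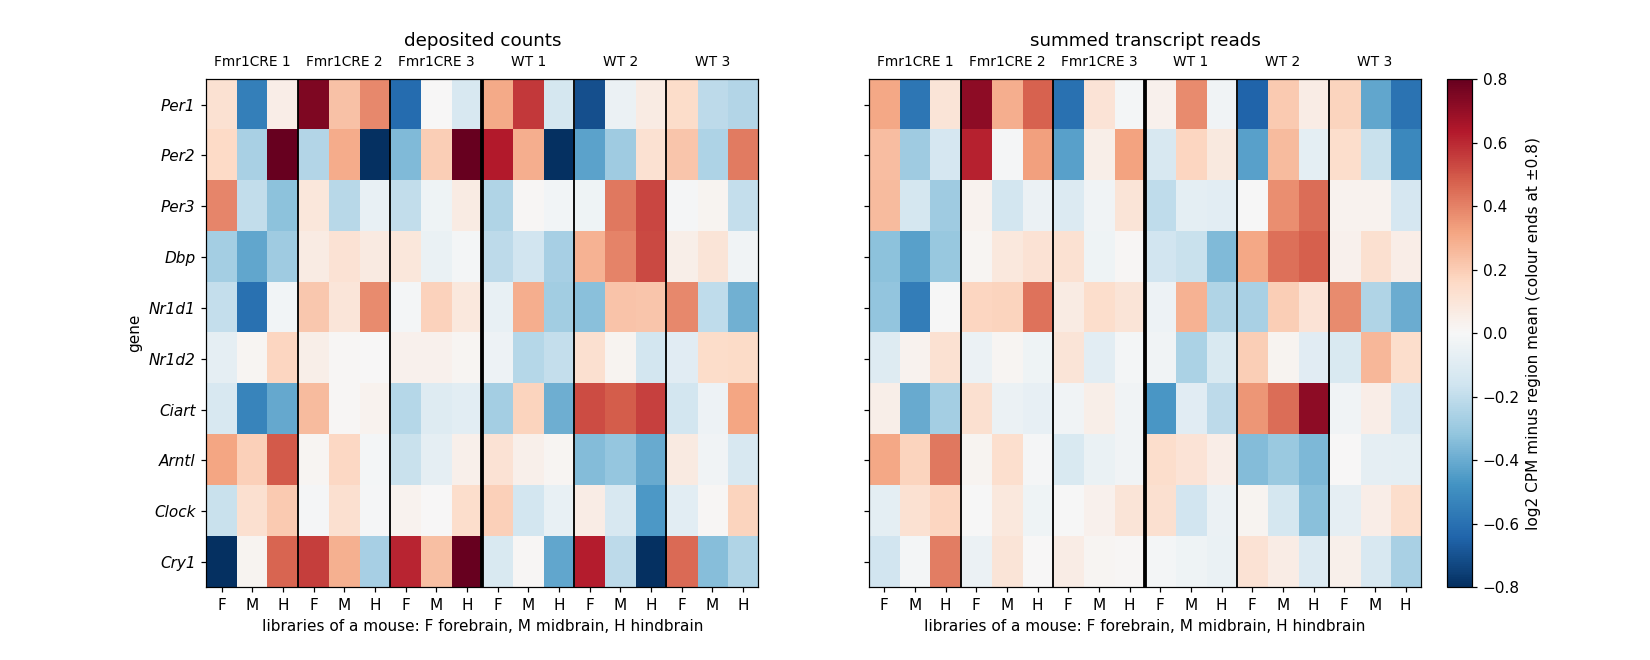
Log2 CPM of the 10 genes (rows) in the 18 libraries (columns, grouped by mouse in the order forebrain, midbrain, hindbrain) minus the mean of the 6 libraries of the region, red above and blue below, with colours ending at 0.8 either way; deposited counts on the left and summed transcript reads on the right. In both panels the 3 columns of WT replicate 2 are red for Dbp and Ciart and blue for Arntl, and those of Fmr1CRE replicate 1 are blue for Dbp and red for Arntl.

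Per1, Per2 and Nr1d1 were lower in hindbrain than in the other regions by their mean levels. Per1 averaged 93.9 ± 34.9 CPM (SD, n = 6) in forebrain, 77.1 ± 20.5 in midbrain and 31.9 ± 5.20 in hindbrain. Its log2 difference within mice was 1.49 ± 0.19 (SE) for forebrain over hindbrain and 1.21 ± 0.19 for midbrain over hindbrain, and the 6 hindbrain libraries lay below every forebrain and midbrain library, where 27.6% and 26.7% of all genes did not overlap in these comparisons. Nr1d1 did not overlap between forebrain and hindbrain either. In summed reads Per1, Per2 and Nr1d1 did not overlap in either, against 33.9% and 33.7%. Nr1d1 averaged 81.8 ± 15.3, 85.0 ± 17.9 and 43.7 ± 8.74, a log2 difference of 0.90 ± 0.16 for forebrain over hindbrain and 0.91 ± 0.16 for midbrain over hindbrain. Summed Per2 averaged 28.6 ± 8.42, 23.5 ± 3.28 and 13.9 ± 2.92, which gave 0.99 ± 0.18 and 0.71 ± 0.17. From deposited counts those differences of Per2 were 1.59 ± 0.46 and 1.79 ± 0.47.

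Smaller steps were seen for the rest. Dbp was highest in forebrain and lowest in hindbrain in each of the 6 mice, with means of 96.0 ± 13.5, 78.4 ± 14.8 and 66.8 ± 14.8 CPM (SD, n = 6). The step was 0.33 ± 0.06 on the log2 scale from midbrain up to forebrain and 0.19 ± 0.06 from hindbrain up to midbrain, although the ranges of all 3 regions overlapped. Arntl was 0.31 ± 0.08 higher in forebrain than in hindbrain, in 6 of 6 mice, and Per3 0.37 ± 0.14, in 5 of 6. Nr1d2 was higher in hindbrain, at 142 ± 14.6 against 124 ± 7.13 in forebrain, a difference of -0.20 ± 0.07 for forebrain over hindbrain, and 1 of the 6 mice went the other way. Ciart, Clock and Cry1 differed between forebrain and hindbrain by 0.10 ± 0.12, 0.19 ± 0.10 and -0.26 ± 0.38.

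In the edgeR fit with the mouse as block, 7 of the 10 genes passed an adjusted p of 0.05 between forebrain and hindbrain, where 51.6% of all genes tested passed. Between midbrain and hindbrain 6 of the 10 passed against 49.1%, and between forebrain and midbrain 1 of the 10, Dbp, against 18.2%. On summed reads 8, 6 and 2 of the 10 passed in the same order, against 61.1%, 58.8% and 27.9%. The regional level was part of the choice of genes, so nothing is read from these counts. Scaling by total counts alone lowered the median gene by 0.15 on the log2 scale in forebrain relative to hindbrain and turned the split of 5088 higher and 4887 lower genes into 4104 and 6425. Arntl and Per3 then no longer passed. Without both mice of replicate 3 the counts were 4, 3 and 0 in the same order of comparisons, with Dbp lost between forebrain and midbrain, and leaving out single mice gave 5 to 7, 3 to 6 and 1.

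Levels can be set against each other between genes only per length, which was done with summed reads per kilobase of effective transcript length. In forebrain Dbp was the most abundant at 56.1 ± 8.54 CPM per kilobase (SD, n = 6), followed by Nr1d2 at 36.0 ± 3.20 and Nr1d1 at 28.3 ± 5.20. Per1 at 16.6 ± 5.92 and Clock at 14.4 ± 0.77 came next and did not differ beyond their spread. Ciart at 11.7 ± 2.09, Arntl at 8.61 ± 1.32 and Per3 at 7.26 ± 0.79 followed, and Cry1 at 5.002 ± 0.32 and Per2 at 4.60 ± 1.35 closed the order, again within their spread. Hindbrain kept Per2 last at 2.23 ± 0.47, while Nr1d2 at 41.5 ± 3.15 and Dbp at 37.4 ± 8.12 led it within their spread.

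Between genotypes the clock genes overlapped almost everywhere. With the regions of each mouse summed, the log2 difference of Fmr1CRE over WT was -0.16 ± 0.16 (SE, 3 mice a genotype) for Dbp, -0.28 ± 0.19 for Ciart, 0.22 ± 0.14 for Arntl, 0.10 ± 0.07 for Clock, -0.10 ± 0.11 for Per3, 0.07 ± 0.21 for Per1, 0.06 ± 0.07 for Nr1d2 and -0.0037 ± 0.12 for Nr1d1. WT replicate 2 and Fmr1CRE replicate 1, the mice at either end for Dbp and Arntl, belong to different genotypes. Cry1 and Per2 were at 0.46 ± 0.19 and 0.14 ± 0.16 in deposited counts and at 0.10 ± 0.07 and 0.16 ± 0.10 in summed reads.

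Within a region, Cry1 was at 1.11 ± 0.38 in hindbrain and 0.36 ± 0.13 in midbrain, and in summed reads these were 0.25 ± 0.14 and 0.07 ± 0.09. Ciart was at -0.39 ± 0.25 in hindbrain and -0.42 ± 0.19 in midbrain, and at -0.36 ± 0.25 and -0.28 ± 0.17 in summed reads. Per2 in hindbrain likewise went from 1.08 ± 0.78 to 0.29 ± 0.19, and in forebrain from -0.29 ± 0.27 to 0.37 ± 0.27, which turned its sign. Its midbrain value also turned, from 0.15 ± 0.20 to -0.17 ± 0.14. In midbrain the genotypes did not overlap for Per3, at 30.9 ± 2.19 CPM in Fmr1CRE and 38.4 ± 6.47 in WT (SD, n = 3), and for Cry1, where 11.4% of all genes did not overlap (10.2% in forebrain and 10.6% in hindbrain, with none of the 10). In summed reads both overlapped in midbrain, where 11.0% of genes did not, and Cry1 did not overlap in hindbrain, where 12.1% did not.

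No gene of the 10 passed an adjusted p of 0.05 for genotype in edgeR. Of all genes, 0% passed in forebrain, 0.00543% in midbrain, 0% in hindbrain and 0.00451% with regions summed. At an unadjusted p under 0.05 there were 0 of the 10 in forebrain, 2 in midbrain, 1 in hindbrain and 1 with regions summed, and DESeq2 called 0 in each. Of all genes, 1002 of 18467, 1135 of 18400, 981 of 19112 and 820 of 22191 lay under it in the same order. Summed reads called 0 of the 10 as well, with 0 under an unadjusted 0.05, where 0.0109% of all genes passed in midbrain and 0.00525% in hindbrain. The test of whether the genotype difference itself differed between regions called 0 of the 10 in edgeR and in DESeq2, with 0 under an unadjusted 0.05, and 0% of all genes in edgeR. Since the 10 were chosen with results of these libraries known, nothing is read from their counts here.

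**Figure D5:**
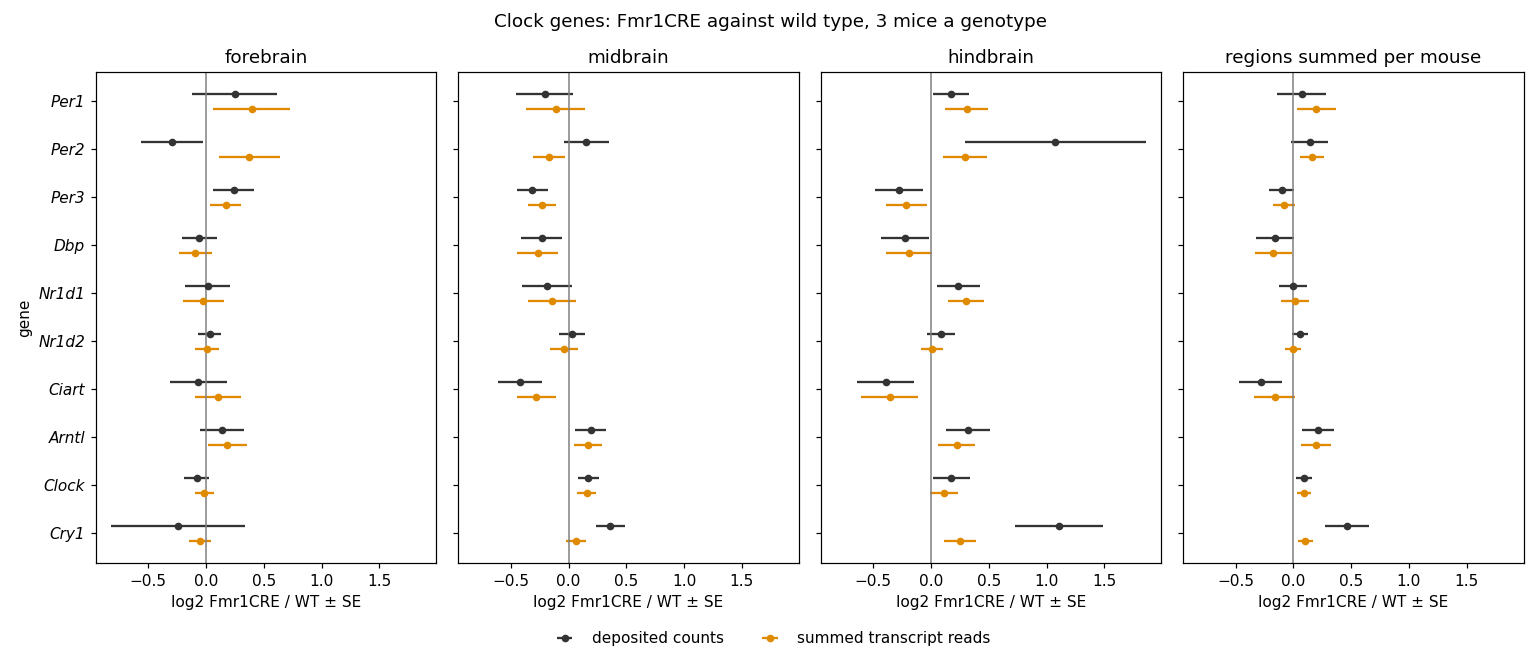
Log2 difference of Fmr1CRE over WT (x axis) with its standard error for the 10 genes (y axis) in forebrain, midbrain, hindbrain and with the 3 regions of a mouse summed, from deposited counts (black) and summed transcript reads (orange), 3 mice a genotype. Deposited Cry1 and Per2 lie at 1.11 and 1.08 in hindbrain, and the same genes lie at 0.25 and 0.29 in summed reads.

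Beyond the 10, 67 genes of the clock and of its inputs and outputs were listed in 8 groups. None passed for genotype by edgeR, in any region or with regions summed, where 63 to 66 of them were tested, and 2 to 7 lay under an unadjusted p of 0.05. DESeq2 called Avp in midbrain and Csnk1d with regions summed, and edgeR called Avp in midbrain without a filter, without both mice of replicate 3 and without Fmr1CRE replicate 3. Avp, which encodes vasopressin, a peptide of the suprachiasmatic and other hypothalamic nuclei, was at 20.2, 18.6 and 6.58 CPM in midbrain of Fmr1CRE and at 0.699, 0.372 and 0.209 in WT, a log2 difference of 5.17 ± 0.57 with an adjusted p of 0.106 in edgeR. In forebrain its order was nearly the reverse, at 0.907, 2.22 and 14.3 in Fmr1CRE and 19.6, 20.3 and 14.5 in WT, and the hypothalamic markers followed the same mice, with 3.43, 7.53 and 45.2 and then 60.7, 73.0 and 32.4 summed CPM in forebrain. In midbrain these markers were at 97.4, 59.5 and 33.7 in Fmr1CRE and at 13.9, 2.81 and 2.51 in WT. The part of the hypothalamic tissue in the Avp difference was not tested.

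Between regions many of these genes changed. Of the feedback loop genes outside the 10, 6 of 8 passed between forebrain and hindbrain, 4 higher in forebrain and 2 lower. Rora, which encodes an activator of Arntl, was among the lower ones, and Npas2, which can stand in for Clock in the forebrain, was among the higher ones. All 3 D-box factors passed, with the activators Hlf and Tef higher in forebrain and the repressor Nfil3 lower. Of the kinases and ubiquitin ligases that act on clock proteins 2 of 9 passed, both higher, and of the clock-driven outputs 3 of 5, with Usp2 and Klf9 higher and Nampt lower. Medians of these groups were 0.45, 0.88, 0.15 and 0.24 on the log2 scale, against -0.01 over all genes, of which 51.6% passed.

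Immediate early genes set forebrain and hindbrain furthest apart, with 14 of 18 higher in forebrain, 0 lower and a median of 2.30. The largest log2 differences among the 67 were those of the immediate early transcription factors Egr3, at 6.46 ± 0.34 (SE, adjusted p = 3.07e-09 by edgeR), Egr2, at 6.09 ± 1.08 (adjusted p = 0.000325), and Egr4, at 4.16 ± 0.42 (adjusted p = 1.98e-06), with Avp at 5.88 ± 1.35 (adjusted p = 0.00237). Between midbrain and hindbrain the same 4 genes led, at 5.51 ± 0.33, 5.26 ± 1.08, 3.36 ± 0.41 and 4.11 ± 1.33, with 15 of 18 immediate early genes higher, where 49.1% of all genes passed. Between forebrain and midbrain 3 of 18 passed, close to the 18.2% of all genes, and the leading genes included Nr4a2, an orphan receptor of dopamine neurons, at -1.64 ± 0.38 (adjusted p = 0.00902), the peptide gene Grp at -1.10 ± 0.18 (adjusted p = 0.00083) and Egr3 at 0.94 ± 0.26 (adjusted p = 0.0214 by edgeR). Suprachiasmatic signals passed in 2 of 5 tested between forebrain and hindbrain, glucocorticoid targets in 7 of 10, 2 higher and 5 lower, and temperature-linked genes in 2 of 7, 1 each way, against 51.6% of all genes. On summed reads Nr4a2 between forebrain and midbrain was at -0.69 with an edgeR adjusted p of 0.055.

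No listed gene passed the edgeR test of mouse within genotype, with 66 tested and 14 under an unadjusted p of 0.05, and DESeq2 called 0. Without both forebrain libraries of replicate 3 edgeR called Fos and Nr4a1. The D-box repressor gene Nfil3, named here after its values were seen, had mean deviations of -0.26 in WT replicate 2 and 0.17 in Fmr1CRE replicate 1, opposite in sign to Dbp, with WT replicate 1 higher still at 0.23 and WT replicate 3 at -0.21. Its share between mice was 69.5%. Tef, an activator of the same family as Dbp, was at 0.13 and -0.13 in the same mice in summed reads, with a share of 68.3%, and its share in deposited counts was 5.40%. The remaining D-box factor, Hlf, had a share of 14.1%, and 32.0% in summed reads. It deviated by 0.01 in WT replicate 2 and -0.16 in Fmr1CRE replicate 1, and was highest in WT replicate 3 at 0.10. The median share was 48.9% over the 5 clock-driven outputs and 26.5% over the 8 other feedback loop genes, against 31.6% over all genes. Over the 3 D-box factors it was 14.1%, and 68.1% in summed reads.

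The genes whose deviations over the 18 libraries were most like the mean of Per1, Per2, Per3, Dbp, Nr1d1, Nr1d2 and Ciart were sought among 12888 others with a mean log2 CPM of at least 2. In deposited counts the 10 highest were Ulk1, Gm42031, Cdc42ep3, Tmem175, Med15, Med24, Cyp2u1, Pomt1, Nup210 and Tnrc6c, with Pearson r from 0.746 down to 0.705. The 5 lowest were Psma2, Mrpl32, Zc3h15, Rab9 and Npm1, from -0.805 to -0.734. The deposited mean holds deposited Per2, which deviated by -1.73 to 1.88 in hindbrain, against -0.51 to 0.33 in summed reads. In hindbrain of Fmr1CRE replicate 1 the mean was 0.15 in deposited counts and -0.11 in summed reads. Summed reads gave other leaders, headed by Nup210 at 0.886, Stk11ip at 0.859 and Fam160b2 at 0.851, so that Nup210 was the only gene in both sets of 10. Libraries of a mouse, the depth of a library and its base composition are shared among the points of these correlations, which are given as a description.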

How the data were processed

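Poly(A) RNA of forebrain, midbrain and hindbrain from 3 Fmr1CRE and 3 WT mice had been sequenced as single-end 50-base reads. The 18 libraries were sequenced in 2 pools of equal size, each on a single flow cell. Which libraries shared a pool is not given in the sources used here, so the part of the pool in differences between mice or genotypes was not tested. The submitters' processing notes name Salmon 0.14.0, DESeq2 1.30.1 and mm10. The gene values are estimated counts deposited by the authors (22455512 to 28061185 a library, median 25123193.5), on which genes without a symbol held 0.0151%. Rebuilding them as length-scaled sums of the transcript estimates came within 0.18% in 18 of 18 libraries, whereas plain sums of reads were 3.848% to 6.479% apart. Since 2 of 18 sets of transcript estimates were attached to the record of the library they match, sets were joined to libraries by this near-identity, the next closest set being at least 9.242% apart. Effective lengths and transcript abundances (TPM) deposited by the authors were used for the levels per kilobase. The deposited log2-like variance-stabilised table was not used.

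Counts were rounded, scaled by TMM, filtered with filterByExpr and fitted in edgeR 4.0.16 (R 4.3.3) by the quasi-likelihood test with Benjamini-Hochberg adjustment over all genes tested. Genotype was fitted within each region and over summed regions, regions with the mouse as block, and mouse within genotype over all 18 libraries. DESeq2 1.42.0, other filters and scalings, and left-out libraries were alternatives, and summed reads were added after the data were seen. Log2 CPM used a prior count of 2. The share between mice is the part of the squared deviations from region means that lies between the means of mice. Scripts were tested on simulated data. Members and lists were chosen with earlier results of these data known. Named genes were the 10 members, at most 4 largest called log2 changes of the other listed genes a comparison, and the 10 most and 5 least like the mean of the genes driven by CLOCK and BMAL1. Some genes of the lists are not reported here.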

Additional observations from a re-analysis of the deposited data

Results flagged for a closer look

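Over the 30 groups of 6 libraries looked at (10 genes in 3 regions), 2 held a library far from the others by Dixon's test, which chance alone gives in about 1 in 20 groups. Cry1 in forebrain of Fmr1CRE replicate 1 lay -2.12 from the region mean on the log2 scale of deposited counts, at 3.31 CPM, where summed reads gave 13.5 CPM and 13.5 to 16.3 over the 6 mice. Nr1d2 in midbrain of WT replicate 1 lay -0.225 from the region mean, at 109 CPM, and at 106 CPM in summed reads, again the lowest of the 6.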

How the results depend on the processing

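For genotype, DESeq2 called 31 genes in forebrain, 62 in midbrain, 60 in hindbrain and 29 with regions summed, where edgeR called 0, 1, 0 and 1. Without a filter edgeR called 11 in midbrain, 11 in hindbrain and 4 with regions summed. With at least 10 counts in every library midbrain gave 0. Summed reads gave 2 in midbrain, 1 in hindbrain and 0 with regions summed, and leaving out both mice of replicate 3 gave 3, 1 and 0. Leaving out single mice gave 0 to 4 in midbrain, 0 to 5 in hindbrain and 0 to 0 with regions summed. Genotype by region went from 0 to 77 with DESeq2, 2 without a filter, 83 without both mice of replicate 3 and 0 to 4 without single mice. Forebrain against midbrain went from 3518 to 5351 on summed reads, 1261 in WT mice alone, 2165 without both mice of replicate 3 and 2465 to 2944 without single mice. Mouse within genotype went from 8 to 3 with at least 10 counts in every library, 123 with DESeq2, 3 in midbrain and hindbrain alone, 15 over all 6 mice, 18 without a filter, 13 on summed reads, 87 on summed reads without both forebrain libraries of replicate 3, 21 without these libraries, 2 without both mice of replicate 3 and 0 to 3 without single mice. The median share between mice of the 10 genes went from 38.8% to 78.3% in midbrain and hindbrain alone, where that of all genes was 51.5%. The cause of these changes was not tested. No log2 difference of the 10 genes that had passed the test turned its sign. On summed reads Per2, which had not passed, turned for genotype in forebrain (-0.29 to 0.37) and midbrain (0.15 to -0.17) and for forebrain against midbrain (-0.20 to 0.28). Among others that had not passed, Ciart turned for genotype in forebrain (-0.07 to 0.10) and Nr1d2 in midbrain (0.03 to -0.04). Clock turned for midbrain against hindbrain (0.06 to -0.02), and further small differences of Nr1d1, Nr1d2 and Ciart did too. Of the log2 differences of the 10 genes, 528 for genotype and 421 between regions moved by less than their spread, and 32 and 29 moved further. Scaling by total counts split forebrain against midbrain into 1208 higher and 2728 lower, against 1698 and 1820, and midbrain against hindbrain into 4371 and 5343, against 4865 and 4619.

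Replicate numbers were shared by the genotypes, and same-numbered samples correlated by -0.225 to 0.128. In mean log2 deviation, Fmr1CRE and WT replicate 1 were the lowest mice for Dbp, at -0.32 and -0.21. They were the highest for Arntl, at 0.33 and 0.06, where Fmr1CRE and WT replicate 2 lay apart, at 0.06 and -0.35. What a shared number stands for is not given in the sources used here, and its part in these values was not tested. With the replicate block genotype gave 0, 1, 0 and 0 genes in forebrain, midbrain, hindbrain and summed regions, the 1 being Avp. Without the mouse as replicate block, the region comparisons gave 10159 (forebrain against hindbrain), 3940 (forebrain against midbrain) and 9734 genes.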

Other observations

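Genes that answer to glucocorticoids, the adrenal hormones whose level also follows the time of day, had a median share between mice of 54.0% over 10 genes, and 63.4% in summed reads, against 31.6% and 32.2% over all genes. Plin4, a lipid droplet gene named after its values were seen, had a share of 85.6%, with mean log2 deviations of 0.53 in WT replicate 2 and -0.56 in Fmr1CRE replicate 1. Tsc22d3, which encodes the glucocorticoid-induced GILZ, was at 0.34 and -0.29 in the same mice with a share of 70.9%. Hif3a was at 0.59 and -0.92 in these mice, and Sgk1 at 0.31 and -0.28, with Fmr1CRE replicate 3 also at 0.31 for Sgk1. At the high end others differed, with Fkbp5, Zbtb16, Errfi1 and Pdk4 highest in Fmr1CRE replicate 2. Fkbp5, Zbtb16 and Pdk4 were lowest in Fmr1CRE replicate 1, at -0.44, -0.25 and -0.30, whereas Errfi1 was lowest in WT replicate 2 at -0.12. Every gene of this list had a mean deviation below zero in Fmr1CRE replicate 1. Temperature-linked genes had a median share of 64.4% over 7 genes. Cirbp, the cold-inducible RNA-binding protein gene, was highest in WT replicate 2 at 0.26 and lowest in Fmr1CRE replicate 2 at -0.30. The heat shock genes Dnajb1, with a share of 73.8%, and Hspa1b, with 69.7%, went the other way in these mice, at -0.18 and -0.46 in WT replicate 2 and at 0.19 and 0.59 in Fmr1CRE replicate 2. None of these genes passed an adjusted p of 0.05 in the edgeR test of mouse within genotype, and their part in the levels of the clock genes was not tested.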
